A study of Mus musculus with 12 samples.

Results

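The Notch receptors, their ligands and the fringe enzymes that sugar-modify the receptors were followed in mouse epidermal samples before and early after wounding. The genes were taken by name: Notch1 and Jag1, plus every measured gene among Notch2, Notch3, Notch4, Jag2, Dll1, Lfng, Mfng and Rfng. All 10 were measured, each by 1 probe set, out of 909 named genes and 1246 probe sets in the deposited table. The rule uses gene names and no value, but it was set with earlier results of these data known. Of these 10 genes, 4 are receptors, 3 are ligands and 3 are fringe enzymes. In the replicated comparisons no member passed the test at an adjusted p of 0.05. Notch1, Notch2 and Notch3 had their lowest values in the single sample taken at 4 h, where Notch1 read 6.88 on the log2 scale against 8.82 to 10.36 in the 4 non-wounded samples. It is 1 of 5 samples, titled number 1, in which Notch1 was below its values in the other 7. The non-wounded sample among them read 8.82. At 4 h, 3 of 10 members and 23.4% of all probe sets lay outside the non-wounded range, 1 log2 unit or more from its mean.

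Notch receptors sit in the membrane of one cell and are activated by Jagged or Delta-like ligands on its neighbour. Binding exposes the receptor to cleavage, last by gamma-secretase, and the freed intracellular part enters the nucleus, joins the DNA-binding protein RBPJ and switches on target genes such as those of the Hes family. Fringe enzymes add a sugar to fucose already attached to the EGF repeats of the receptor and so alter which ligands it answers. In epidermis this signalling is known for its part in moving keratinocytes from the basal layer into differentiation.

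The samples were total RNA on single-colour arrays, with titles that begin with B6 and no genotype, age or sex stated. Of the 12 samples 4 were not wounded, 4 were taken 2 h after wounding and 2 after 30 min, and the 0 h and 4 h time points had a single sample each; no agent other than wounding is named. The design text plans whole epidermis and asks which keratinocyte genes respond early to injury, whereas the sample labels name dendritic epidermal T cells, so the material is stated in 2 ways. The origin of the replicates is not described, and if several came from the same mouse the p-values would reflect technical spread alone.

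The keratinocyte galectin Lgals7 lay between 11.0 and 12.36 on the log2 scale and the Langerhans cell lectin Cd207 between 6.57 and 9.32, in a table that runs from 1.76 to 13.3. The other measured markers of antigen-presenting cells were Cd74 at 9.56 to 11.1, Cd83 at 3.46 to 6.56 and Ly75 at 3.17 to 3.86. Of the T cell markers, Klrk1, an activating receptor of dendritic epidermal T cells, lay between 2.27 and 3.12 and Cd69 between 2.27 and 2.99. Cd2 lay between 4.52 and 5.75, Il2rb between 4.61 and 5.96 and Itgae between 4.09 and 5.48. The mean over 3 measured of 12 keratinocyte markers was 8.62 to 9.88 in the non-wounded samples, 8.96 at 0 h, 8.05 to 9.59 at 30 min, 7.74 to 9.71 at 2 h and 8.27 at 4 h. The mean over 5 measured of 11 T cell markers was 3.89 to 4.14, 4.07, 3.94 to 4.16, 3.95 to 4.40 and 4.01 in the same order. In bulk RNA such as this, fewer cells of a type and less RNA per cell cannot be told apart.

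Each group holds 1 sample whose title carries the number 1, and these 5 differed from the remaining 7 in a way that touches most values given here. Their log2 values had an SD over all probe sets of between 1.55 and 1.85, and those of the samples numbered 2 to 4 had one of between 2.19 and 2.30. The 0 h and 4 h samples are both numbered 1. For Notch1, Notch2, Jag1 and Dll1 all values of the samples numbered 1 were below all others, for Notch1 narrowly (6.88 to 9.57 against 9.59 to 10.36). Notch2 was 5.22 to 6.25 in those 5 samples numbered 1 and 8.60 to 9.23 in the other 7, Jag1 was 5.26 to 6.07 against 7.66 to 8.36, and Dll1 was 4.80 to 5.92 against 7.25 to 8.08. Results are therefore given for all samples, within replicate numbers, and for the samples numbered 2 to 4 alone.

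**Figure D1:**
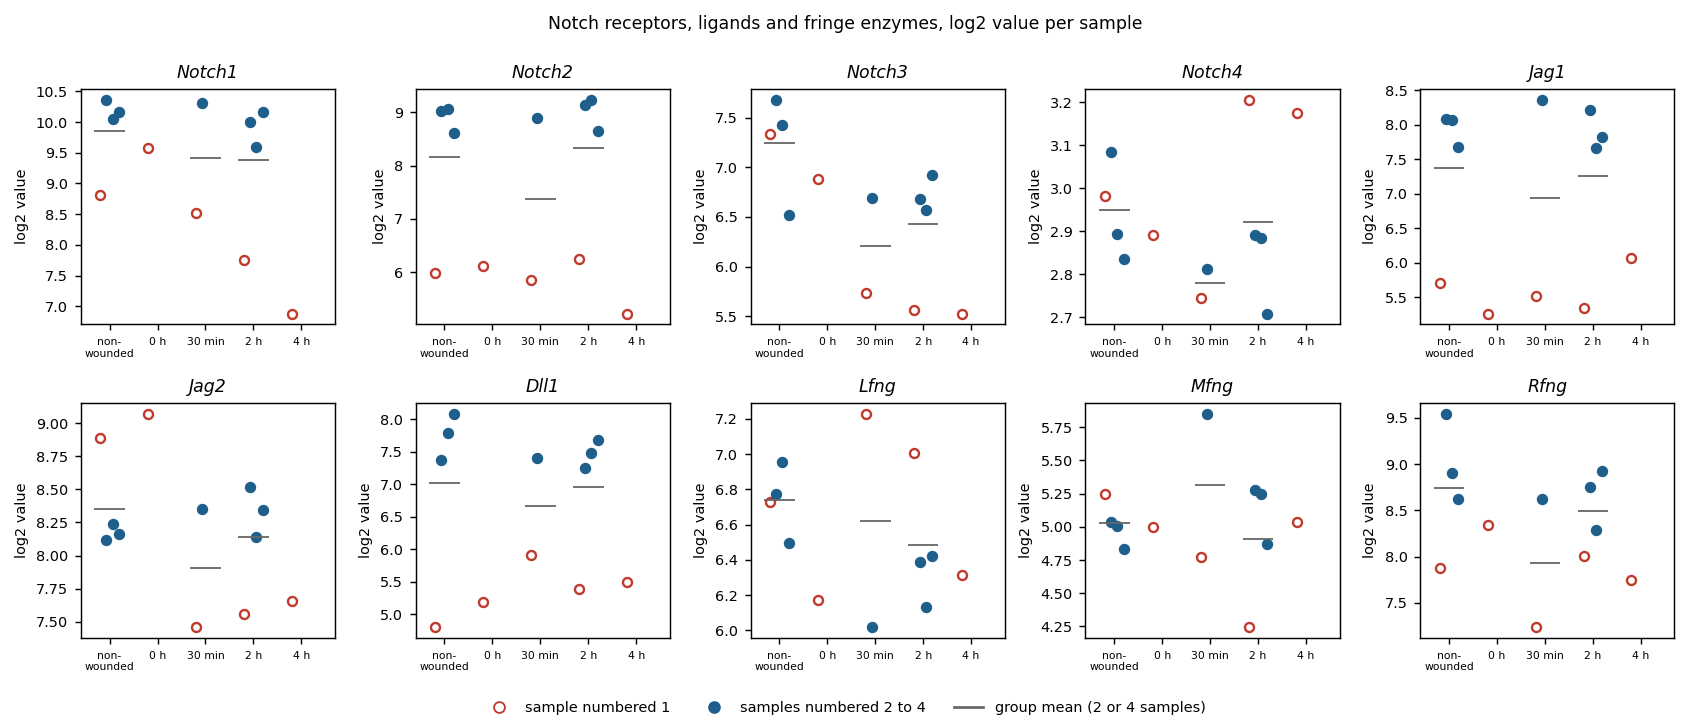
Log2 value of each of the 10 genes (vertical axis, own scale in each panel) in every sample, grouped by time after wounding (horizontal axis). Open points are the samples numbered 1, filled points those numbered 2 to 4, and lines are means of groups with 2 or 4 samples. For Notch1, Notch2, Jag1 and Dll1 the open points lie below all filled points, whatever the time, for Notch1 by little (9.57 against 9.59).

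To show the DNA that this pathway could read next to the genes themselves, the 250 bases before the RefSeq transcription start (GRCm38.p6) were searched for letters of the RBPJ motif. The core was TGGGAA and the longer form, which contains it, GTGGGAA, both on either strand. Starts were listed for 9 of the 10 genes, with Mfng as the exception. The core was present in 21.6% of all 32851 listed starts and the longer form in 5.41%. Among the 9 genes only Lfng, a fringe enzyme that is itself known as a Notch target in the developing somite, held the core, at 2 places. Counted from the start, the first matched base was at -135 on the reverse strand and at -108 on the forward strand, the second of these in the longer form. The windows of Notch1 (chr2:26503823-26504072, minus strand), Notch3 (chr17:32166891-32167140, minus strand), Jag1 (chr2:137116521-137116770, minus strand) and Lfng (chr5:140607091-140607340, plus strand) are shown 5′ to 3′ because the values below turn on these genes. That of Hes5 (chr4:154960673-154960922, plus strand), a Notch target with the longer form at 2 places, is shown for comparison. Capitals mark the motif letters, and windows without capitals hold none.
Notch1: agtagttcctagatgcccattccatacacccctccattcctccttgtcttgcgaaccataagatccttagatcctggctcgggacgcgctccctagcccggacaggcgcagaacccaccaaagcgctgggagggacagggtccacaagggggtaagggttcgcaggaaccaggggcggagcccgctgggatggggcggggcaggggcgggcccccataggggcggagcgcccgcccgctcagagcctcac
Notch3: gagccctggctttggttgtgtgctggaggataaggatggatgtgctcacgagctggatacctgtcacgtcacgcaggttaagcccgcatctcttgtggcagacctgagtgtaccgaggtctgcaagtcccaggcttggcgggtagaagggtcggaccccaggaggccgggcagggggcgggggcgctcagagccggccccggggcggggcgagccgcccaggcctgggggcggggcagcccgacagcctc
Jag1: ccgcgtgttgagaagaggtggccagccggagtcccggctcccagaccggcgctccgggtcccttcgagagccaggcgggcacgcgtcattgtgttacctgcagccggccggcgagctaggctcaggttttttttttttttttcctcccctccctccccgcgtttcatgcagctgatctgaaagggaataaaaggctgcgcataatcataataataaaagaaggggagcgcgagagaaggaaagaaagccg
Lfng: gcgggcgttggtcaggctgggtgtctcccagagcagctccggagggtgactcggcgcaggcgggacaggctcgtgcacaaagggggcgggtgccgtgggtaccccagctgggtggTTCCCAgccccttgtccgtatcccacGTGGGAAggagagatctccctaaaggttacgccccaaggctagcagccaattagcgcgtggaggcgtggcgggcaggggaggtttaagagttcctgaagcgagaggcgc
Hes5: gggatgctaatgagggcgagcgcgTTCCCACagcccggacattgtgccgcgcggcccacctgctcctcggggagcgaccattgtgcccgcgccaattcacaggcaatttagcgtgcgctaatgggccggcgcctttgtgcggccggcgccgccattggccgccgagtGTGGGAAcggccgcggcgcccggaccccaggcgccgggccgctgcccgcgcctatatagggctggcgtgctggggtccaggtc

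These matches are letters in a window and not measured binding. The same search over the wider pathway list found starts for 13 of 17 measured genes, with Hes1 among those without one. Of the 13, 6 held the core (Slc35c2, Psen2, Psenen, Rbpj, Hes5 and Hes7) and 3 the longer form (Psen2, Hes5 and Hes7). Here a gene counted if any of its starts matched, over 18 starts in all, whereas the shares over all listed starts are per start. The windows of the 9 members held 56.0% to 87.2% G and C over their 10 listed starts, and those of the wider list 44.8% to 80.4%.

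The first question of the design is how epidermis at 2 h after wounding differs from non-wounded epidermis. None of the 10 genes passed the test (limma with Benjamini-Hochberg adjustment over all 1246 probe sets), where 0.241% of all probe sets did, 3 in number. Each member had an adjusted p of 0.998. Of the 10, 9 had a mean below that of the non-wounded samples, and the median log2 difference was -0.17. Over all probe sets 45.5% were lower and the median was 0.03. These shares moved with the scaling: centring each sample on its median gave 9 of 10 members and 60.1% of all probe sets lower, scaling to the same median and SD gave 8 and 63.3%, and quantile normalization 7 and 53.1%. Single libraries moved the members' share further. Without 2 h replicate 1, 5 of 10 members and 54.25% of all probe sets were lower, with a members' median of 0.03. Without non-wounded replicate 2, 5 of 10 members and 43.7% of all probe sets were lower, with a members' median of -0.05. The members cannot be taken as independent of each other, since most share the shift of the samples numbered 1. No member had 2 h values that were all outside the non-wounded values, as 4.74% of all probe sets did.

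Among the receptors, Notch1, the main Notch receptor of keratinocytes, read 8.82, 10.36, 10.05 and 10.16 in the non-wounded samples 1 to 4. At 2 h it read 7.76, 9.99, 9.59 and 10.17. The groups overlapped, and within each group the sample numbered 1 was the lowest. The log2 difference was -0.47 ± 0.60 (SE; 95% interval -1.82 to 0.88), from 9.85 ± 0.70 (SD, n = 4) to 9.38 ± 1.11 (SD, n = 4). Paired by number the differences were -1.06, -0.37, -0.46 and 0.01, so 3 of 4 pairs were lower and the fourth was level.

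Notch3, a receptor best known from vascular smooth muscle and also present in suprabasal epidermis, had the largest 2 h difference of the members. Its non-wounded values were 7.34, 7.68, 7.42 and 6.52, and its 2 h values were 5.57, 6.68, 6.57 and 6.92. Non-wounded replicate 4 was the only non-wounded value within the range at 2 h. The log2 difference was -0.81 ± 0.36 (SE; 95% interval -1.62 to 0.01), with an unadjusted p of 0.0524 in limma and an adjusted p of 0.998. By number it was -1.77, -1.0, -0.85 and 0.40.

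Notch2 showed how much of the spread lay in the numbers. It read 5.98, 9.02, 9.06 and 8.60 without wounding and 6.25, 9.14, 9.23 and 8.66 at 2 h, so that in each group 1 sample lay far below the other 3. The log2 difference was 0.15 with an SE of 0.95 over all samples. Within numbers it was 0.27, 0.12, 0.17 and 0.05, higher in 4 of 4 pairs; 25% of all probe sets had the same sign in all 4 pairs, and Notch2 was the only member that did. Notch4, the endothelial receptor, stayed between 2.71 and 3.21 in all 12 samples. These values lie near the bottom of the table, and RMA gives no detection call that would say whether it was expressed. Emcn, Pecam1, Sele and Selp, the 4 measured of 12 endothelial markers, averaged 2.86 to 3.34 in the non-wounded samples and 3.07 to 3.49 at 2 h.

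Of the ligands, Jag1, a Jagged ligand made by keratinocytes, read 5.70, 8.08, 8.07 and 7.67 in the non-wounded samples and 5.34, 8.21, 7.66 and 7.82 at 2 h. The groups overlapped throughout, and the log2 difference was -0.12 ± 0.83 (SE). By number it was -0.36, 0.13, -0.40 and 0.15, with no common direction. Jag2, the other Jagged ligand, read 8.89, 8.12, 8.24 and 8.16 and then 7.56, 8.52, 8.14 and 8.34. Here the sample numbered 1 was the highest of the non-wounded samples and the lowest at 2 h. The Jag2 difference was -0.21 ± 0.29 (SE), made up of -1.33 in the pair numbered 1 and 0.40, -0.10 and 0.18 in the others. Dll1, a Delta-like ligand, read 4.80, 7.37, 7.79 and 8.08 and then 5.40, 7.25, 7.47 and 7.69. Its pair numbered 1 was higher by 0.60 and the other 3 pairs differed by -0.12, -0.32 and -0.40.

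The fringe enzymes are glycosyltransferases of the Golgi. Lfng read 6.73, 6.77, 6.96 and 6.50 in the non-wounded samples and 7.01, 6.39, 6.13 and 6.42 at 2 h, with a log2 difference of -0.25 ± 0.28 (SE). Among the samples numbered 2 to 4 all 3 values at 2 h were below all 3 non-wounded ones, and Lfng was the only member of which this held, in a table where 25.1% of probe sets did not overlap in this way. Mfng read 5.25, 5.04, 5.0 and 4.83 and then 4.24, 5.27, 5.25 and 4.87, with a difference of -1.0 in the pair numbered 1 and of 0.04 to 0.24 in the others. Rfng read 7.88, 9.55, 8.91 and 8.63 and then 8.01, 8.75, 8.29 and 8.92, with a log2 difference of -0.25 ± 0.41 (SE). No fringe enzyme moved the same way in all 4 pairs.

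The replicate number was also fitted as a block, because samples of the same number deviated together when all 4 numbers were taken. Among numbers 2 to 4 alone they did not, with correlations of -0.150, 0.0727 and -0.319, so the block mainly sets the samples numbered 1 against the rest. With this replicate block 0 of 10 members and 0 of 17 wider pathway genes were called at 2 h, where 1.36% of all probe sets were, 17 in number. The block left the differences as they were and narrowed their errors. Notch1 then had an SE of 0.18 and an interval of -0.88 to -0.06 (adjusted p = 0.284 in limma), and Notch3 an SE of 0.30 and an interval of -1.49 to -0.13 (adjusted p = 0.284). With the block 2 of 10 members had an unadjusted p under 0.05 in limma, as did 172 of the 1246 probe sets. For Jag1 the interval was -0.47 to 0.23, and for Notch2 -0.12 to 0.43. In the samples numbered 2 to 4 alone 3.05% of probe sets were called, 38 in number, and again no member. Lfng came nearest there, with -0.43 ± 0.14 (SE; adjusted p = 0.185).

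**Figure D2:**
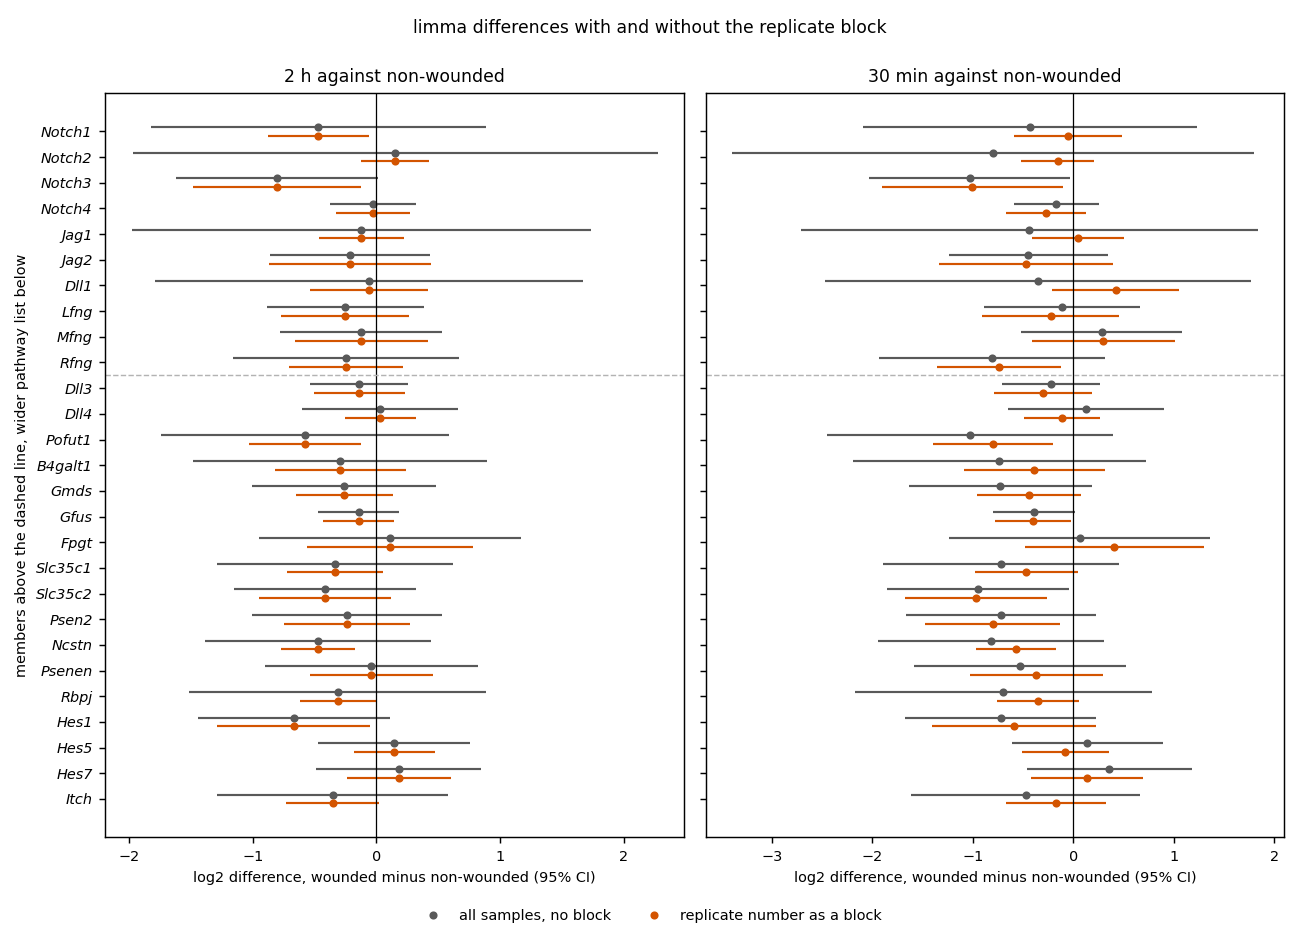
Log2 difference from non-wounded (horizontal axis) of the 10 genes and the 17 measured genes of the wider pathway list (vertical axis), at 2 h and at 30 min. Points are limma estimates and lines their 95% intervals, without the block and with the replicate number as a block. At 2 h the intervals of Notch1 and Notch3 and of 4 of the 17 genes leave 0 with the block, and none does without it. At 30 min those of Notch3 and Slc35c2 leave 0 without the block, and those of 2 members and 5 of the 17 genes with it. No gene passes the adjusted threshold of 0.05. With the block, 172 of all 1246 probe sets at 2 h and 136 at 30 min had an unadjusted p under 0.05 in limma.

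At 30 min only 2 samples were available. No member passed the test, and 0 of the 1246 probe sets did (percent called 0; 63 had an unadjusted p under 0.05 in limma, and the smallest adjusted p was 0.735). With the block 136 had an unadjusted p under 0.05 and 0 were called. This comparison and the one at 2 h share the non-wounded samples, so their values are set side by side and their agreement is not a result. The members' median log2 difference was -0.43 at 30 min, with 9 of 10 lower, where 46.2% of all probe sets were lower. With the block 7 of 10 members and 50.7% of all probe sets were lower. Quantile normalization gave 6 and 49.7%, and quantile normalization with the block 4 and 50.2%. Centring each sample on its median gave 9 and 56.8%, and scaling to the same median and SD 7 and 59.3%. Without the 30 min sample numbered 1, 4 of 10 members and 56.9% of all probe sets were lower, and the members' median was 0.20.

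Notch3 read 5.74 and 6.69 at 30 min, numbered 1 and 2, where the non-wounded samples of these numbers read 7.34 and 7.68. Only non-wounded replicate 4, at 6.52, lay as low. The log2 difference was -1.03 ± 0.45 (SE), the widest of the members, with an adjusted p of 0.735 in limma, and -1.60 and -0.99 within the 2 numbers. Rfng read 7.24 and 8.63, and its differences within numbers were -0.64 and -0.92. With the block Rfng had a log2 difference of -0.74 ± 0.27 (SE; adjusted p = 0.432) and Notch3 of -1.01 ± 0.39 (adjusted p = 0.432).

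Notch1, at 8.52 and 10.32, was close to the non-wounded samples of the same numbers, from which it differed by -0.30 and -0.04. Jag1 read 5.52 and 8.36, Notch2 5.85 and 8.89, and Notch4 2.74 and 2.81. The other genes moved opposite ways or unequally in the pairs. Jag2, at 7.46 and 8.35, differed by -1.43 and 0.23. Dll1, at 5.92 and 7.40, differed by 1.12 and 0.03, and its estimate changed sign with the block, from -0.35 to 0.42. Lfng, at 7.23 and 6.02, differed by 0.50 and -0.76, and Mfng, at 4.77 and 5.85, by -0.47 and 0.81. The 30 min sample numbered 2 held the lowest Lfng and the highest Mfng value of all 12 samples.

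Between 30 min and 2 h no member was called either (percent called 0 over all probe sets; 27 had an unadjusted p under 0.05 in limma). The median log2 difference of the members, 2 h minus 30 min, was 0.23, with 7 of 10 higher, where 631 of 1246 probe sets were higher; the smallest adjusted p of any probe set was 0.370. With the block 5 of 10 members and 653 of 1246 probe sets were higher. Without 30 min replicate 1, 2 of 10 members and 751 of 1246 probe sets were higher, with a members' median of -0.35. Notch3 differed by 0.22 and Notch1 by -0.04, so the 30 min and 2 h values of both receptors lay within the spread of the samples. In the samples numbered 2 to 4 alone, with 1 sample at 30 min, Mfng had a log2 difference of -0.72 (adjusted p = 0.430), where 0.161% of probe sets were called.

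**Figure D3:**
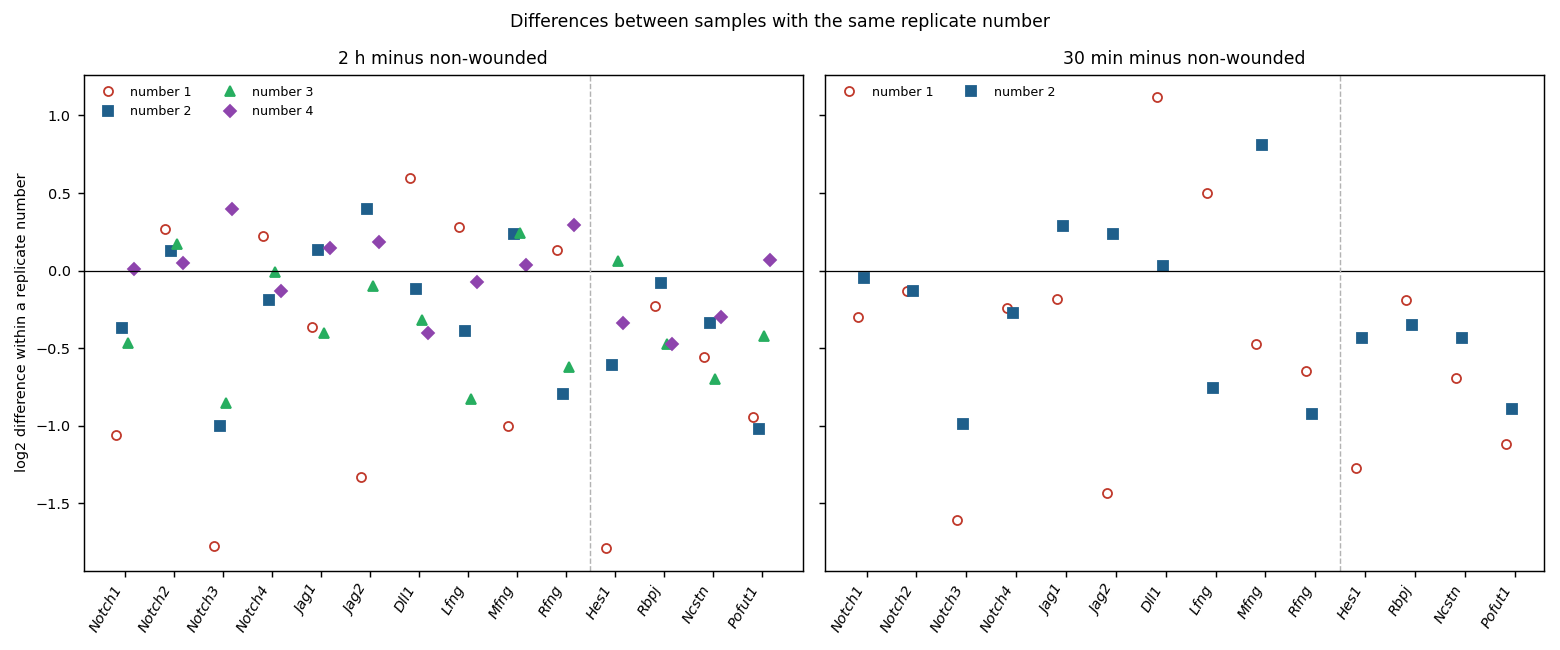
Log2 difference between a wounded and a non-wounded sample with the same replicate number (vertical axis), for the 10 genes and 4 genes of the wider list (horizontal axis), at 2 h (4 pairs) and 30 min (2 pairs). Each symbol is 1 pair. At 2 h Notch2 lies above 0 in all 4 pairs and Rbpj and Ncstn below 0 in all 4, whereas Jag2 and Mfng are far below 0 only in the pair numbered 1.

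The samples at 0 h and 4 h are single, so their values are described without a test. At 0 h 1 of 10 members, Jag1, was outside the non-wounded range and at least 1 log2 unit from the non-wounded mean, where 6.34% of all probe sets were. Jag1 read 5.26, a log2 difference of -2.12, yet it differed by -0.44 from non-wounded replicate 1, the sample of its own number. Against that sample no member differed by 1 or more, and 0.883% of probe sets did. Notch1 read 9.57 at 0 h, 0.76 above non-wounded replicate 1. A higher difference was found for 26 of the 1246 probe sets, and for 44 after scaling to the same median and SD. In the deposited values Notch1 had the highest 0 h difference of the members and the wider list, so its rank follows from that choice. Hes1, a transcription factor gene switched on by Notch, read 9.08, 0.67 above non-wounded replicate 1, the highest Hes1 value of all 12 samples. The other measured targets, Hes5 and Hes7, differed from non-wounded replicate 1 by 0.42 and -0.18. The other members at 0 h were Notch2 at 6.11, Notch3 at 6.88, Notch4 at 2.89, Jag2 at 9.07, Dll1 at 5.20, Lfng at 6.17, Mfng at 5.0 and Rfng at 8.34.

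At 4 h 3 of the 10 members met this rule, where 23.4% of all probe sets did. All 3 were receptors, and all were lower. Of the 292 probe sets that met the rule, 215 were lower and 77 higher. After quantile normalization Notch3, at -0.81, no longer met the rule. The deposited values were Notch1 at 6.88 (log2 difference -2.97), Notch2 at 5.22 (-2.95) and Notch3 at 5.53 (-1.71). Each was the lowest value of that gene in the 12 samples. Against non-wounded replicate 1 the differences were -1.94 for Notch1 and -1.81 for Notch3, but -0.77 for Notch2. Jag2, at 7.66, differed by -1.23 from that sample, and 11.8% of all probe sets differed from it by 1 or more. The mean of the keratinocyte markers was 8.27 at 4 h against 8.62 in non-wounded replicate 1, and its part in these values was not tested. The 3 markers did not move alike. Sdc1 read 7.36 at 4 h against 8.40 in that sample, Lgals7 11.53 against 11.83, and Egfr, by its brighter probe set, 5.94 against 5.63. Jag1 at 4 h read 6.07, Dll1 5.50, Lfng 6.31, Mfng 5.04, Rfng 7.75 and Notch4 3.17.

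Within the 5 samples numbered 1, which hold 1 sample of each group, Notch1 read 8.82 without wounding and then 9.57, 8.52, 7.76 and 6.88 at 0 h, 30 min, 2 h and 4 h. Notch3 read 7.34, 6.88, 5.74, 5.57 and 5.53, and Hes1 read 8.42, 9.08, 7.15, 6.63 and 6.21. In this series all 3 were lowest at 4 h. Of the 1246 probe sets, 8 had a lower difference than Hes1 between 4 h and non-wounded replicate 1, 12 a lower difference than Notch1 and 21 a lower difference than Notch3. These 3 had the lowest 4 h differences of the members and the wider list, so their ranks follow from that choice. A difference of 1 or more from that sample was found for 11.8% of all probe sets. After each sample was scaled to the same median and SD, the 4 h differences were -2.15 for Hes1, -1.74 for Notch1 and -1.84 for Notch3. Jag1, by contrast, was 0.37 above non-wounded replicate 1 at 4 h, and Dll1 0.70 above it. The targets Hes5 and Hes7 differed from it by -0.30 and -0.02 at 4 h.

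The samples numbered 2, at 3 times, did not show Notch1 changes of this size. There Notch1 read 10.36 without wounding, 10.32 at 30 min and 9.99 at 2 h, Notch3 read 7.68, 6.69 and 6.68, and Hes1 read 8.50, 8.07 and 7.90. No sample numbered 2 to 4 was taken at 0 h or 4 h, so in these data the 4 h values rest on 1 sample.

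**Figure D4:**
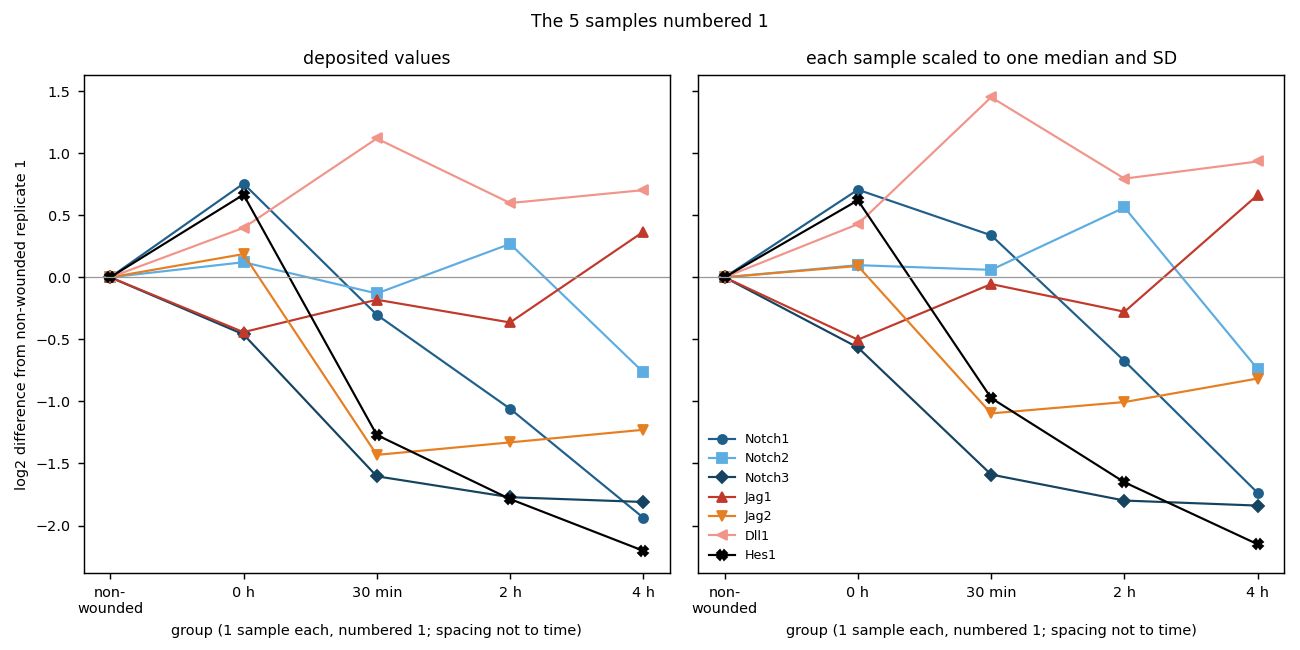
Log2 difference from non-wounded replicate 1 (vertical axis) in the other samples numbered 1, 1 sample each at 0 h, 30 min, 2 h and 4 h (horizontal axis, spacing not to time), for 6 members and Hes1. The left panel has the deposited values and the right panel values scaled to the same median and SD in each sample. At 4 h Hes1, Notch1 and Notch3 are the lowest in both panels, at -2.20, -1.94 and -1.81 in the deposited values.

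Of 53 further gene names of the pathway, 17 were measured: the ligands Dll3 and Dll4, the sugar-transfer enzymes Pofut1 and B4galt1, 5 genes of GDP-fucose supply, 3 gamma-secretase subunits, Rbpj, the targets Hes1, Hes5 and Hes7, and the ubiquitin ligase gene Itch. None of the 17 passed the test at 2 h, 30 min or between the 2 times. At 2 h 13 of 17 were lower, with a median log2 difference of -0.26, where 45.5% of all probe sets were lower as deposited, 60.1% after centring and 63.3% after scaling. Without 2 h replicate 1, 10 of 17 and 54.25% of all probe sets were lower, and the median of the 17 was -0.04. Of these genes 3 were lower in all 4 pairs (Rbpj, Ncstn and Gmds), where 25% of all probe sets had the same sign in all 4.

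Ncstn encodes nicastrin, the substrate-binding subunit of gamma-secretase. It read 6.49, 7.60, 7.60 and 7.52 without wounding and 5.94, 7.26, 6.90 and 7.22 at 2 h. Within the samples numbered 2 to 4 the groups did not overlap. This held for 3 of the 17 genes (Ncstn, Rbpj and Hes7) and for 25.1% of all probe sets. The Ncstn log2 difference was -0.47 ± 0.41 (SE) over all samples and had an SE of 0.13 with the block (adjusted p = 0.155 in limma), the smallest adjusted p of the list there. Rbpj, the DNA-binding partner of the receptor's intracellular part, read 5.40, 7.09, 7.13 and 7.06 and then 5.17, 7.01, 6.66 and 6.59. Its difference was -0.31, with an SE of 0.13 and an adjusted p of 0.355 with the block.

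Hes1 read 8.42, 8.50, 8.19 and 8.21 without wounding and 6.63, 7.90, 8.26 and 7.87 at 2 h. Only the 2 h sample numbered 3 lay within the non-wounded range. The log2 difference was -0.67 ± 0.35 (SE; adjusted p = 0.998), and -1.79, -0.61, 0.06 and -0.34 within numbers. Of the other Hes genes on the list, Hes5 read 3.97 to 4.97 without wounding and 4.17 to 5.04 at 2 h. Hes7 read 4.54 to 5.91 and 5.02 to 5.56. Among the samples numbered 2 to 4 its 2 h values were all above the non-wounded ones, where 25.1% of all probe sets did not overlap. Hes6 is not on the list and is named after its values were seen; its probe sets read 6.23, 6.77, 6.65 and 6.45 against 6.71, 5.87, 6.13 and 5.97 at 2 h, and 6.19, 7.31, 7.05 and 6.89 against 5.98, 6.41, 6.52 and 6.61. The second of these was lower in all 4 pairs and the first in 3, where 25% of all probe sets had the same sign in all 4. Hes2 and Hes3, also not on the list, had mean pair differences of 0.08 and 0.03 at 2 h. Their non-wounded means were low, at 3.25 and 3.34. Pofut1, the enzyme that attaches the fucose which fringe enzymes extend, read 5.74, 7.33, 6.59 and 6.57 and then 4.79, 6.31, 6.17 and 6.65. Its log2 difference was -0.58 ± 0.52 (SE) at 2 h and -1.03 ± 0.64 (SE) at 30 min, where the 2 pairs differed by -1.12 and -0.89. Slc35c2, of GDP-fucose supply, had the smallest unadjusted p of the list at 30 min (0.0414 in limma, adjusted p = 0.735). Its log2 difference there was -0.95 ± 0.40 (SE).

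At 4 h 7 of the 17 met the rule for single samples, where 23.4% of all probe sets did: Hes1, Itch, Rbpj, Psen2, Psenen and Slc35c1 lower and Dll4 higher. Against non-wounded replicate 1 only Hes1, at -2.20, and Psenen, at -1.43, differed by 1 or more, 2 of 17, which is the share of all probe sets that did (11.8%). Psenen encodes the smallest gamma-secretase subunit and read 7.76 at 4 h, below its values in all other samples (8.23 to 9.86).

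**Figure D5:**
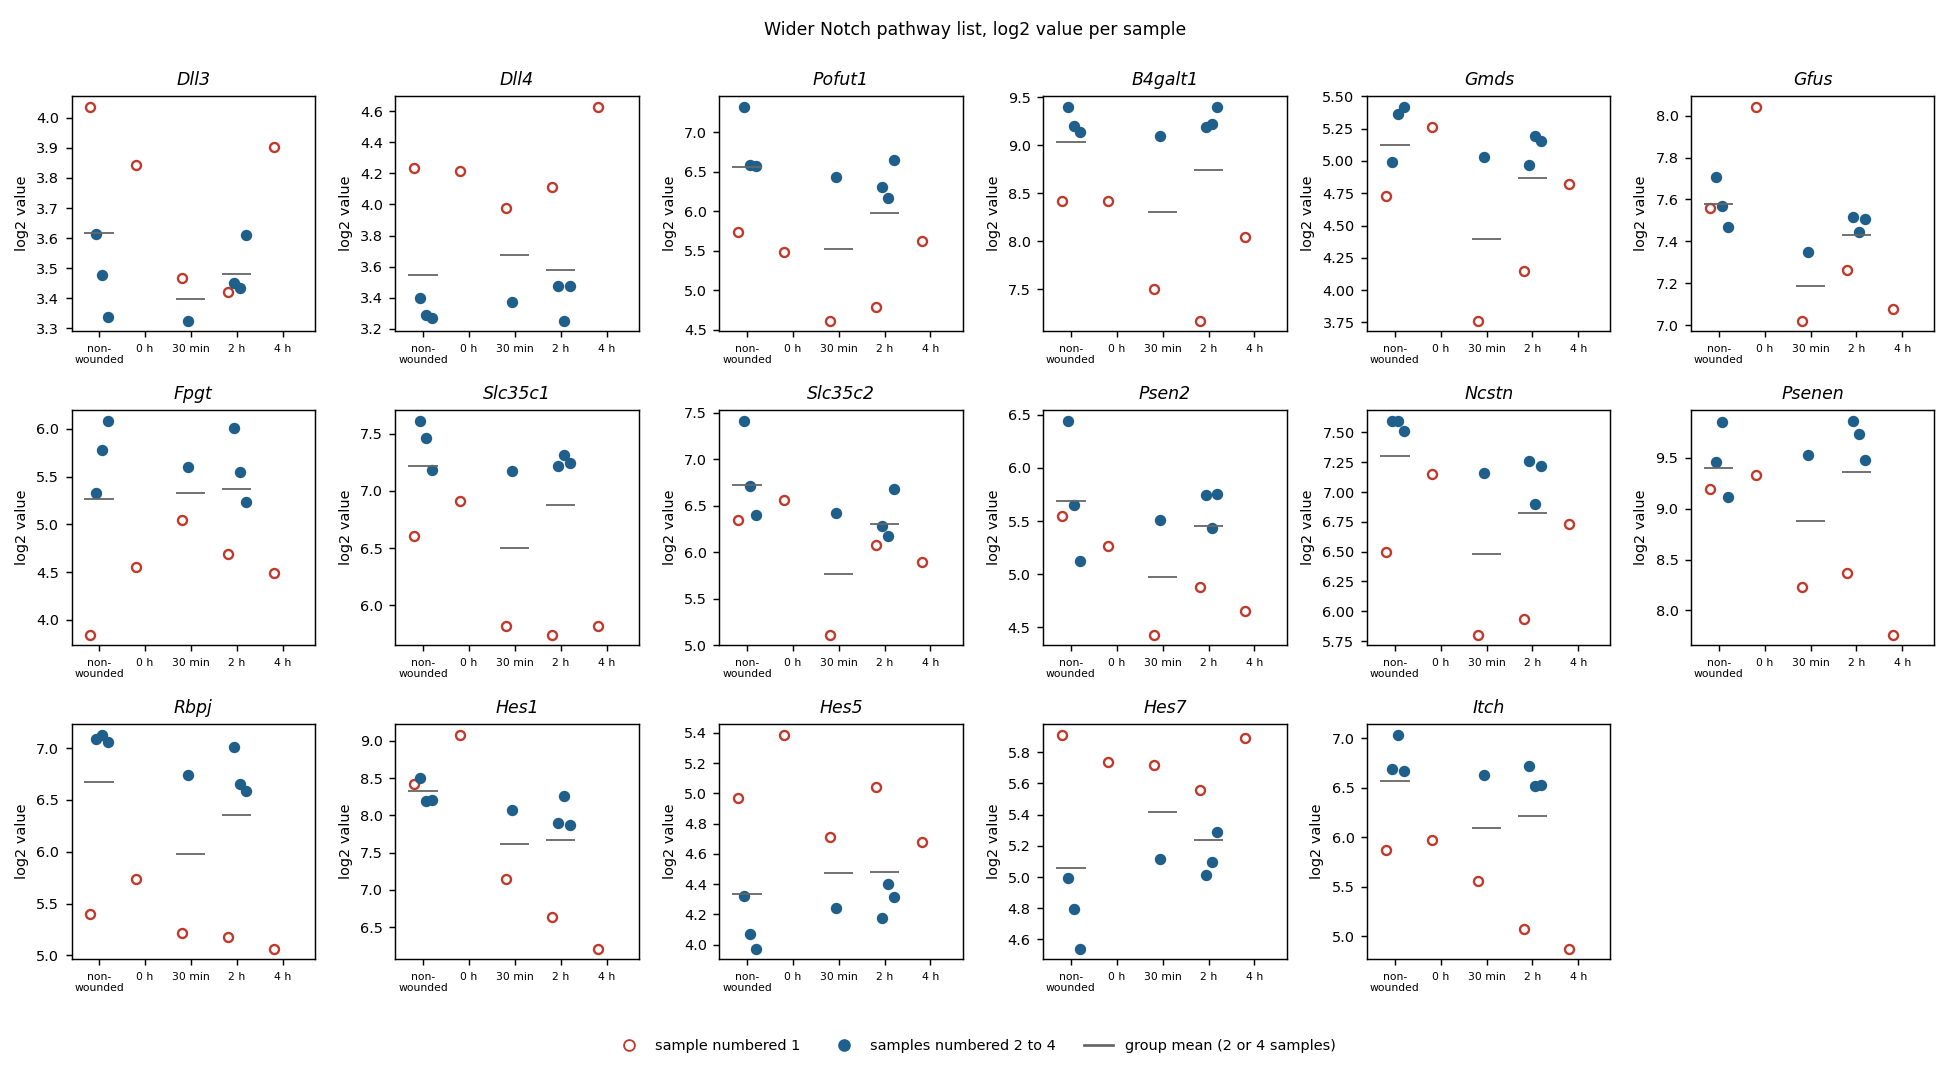
Log2 value of each of the 17 measured genes of the wider pathway list (vertical axis, own scale in each panel) in every sample, grouped by time after wounding (horizontal axis). Open points are the samples numbered 1, filled points those numbered 2 to 4, and lines are group means. Hes1 is highest in the 0 h sample at 9.08 and lowest in the 4 h sample at 6.21. The open points lie below all filled points for Rbpj, Itch, B4galt1, Pofut1, Slc35c1 and Fpgt. They lie above all filled points for Dll4, Hes5 and Hes7.

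The genes whose values were most like those of Notch1 over all 12 samples, by Pearson correlation among 909 named genes, were Ogt (0.968), Cog3 (0.963), Alg1 (0.958), Wnt3a (0.957) and Itch (0.954). For Jag1 they were Armc1 (0.979), Mrpl43 (0.972), Alg5 (0.971), Manba (0.966) and Slc35e3 (0.966). All 12 points share the split between the samples numbered 1 and the rest. Over the 7 samples numbered 2 to 4 the closest to Notch1 were Acvr2b (0.932), Sar1a (0.895), Klra4 (0.873), Ogt (0.863) and Ddx24 (0.854), so that Ogt, the enzyme that adds O-linked N-acetylglucosamine to intracellular proteins, was the only gene in both lists. For Jag1 the closest over these 7 were Ihh (0.958), Sult1b1 (0.95), Sulf1 (0.882), Igf1 (0.880) and Il17a (0.862), none of which was in its list over 12. These are descriptions over few samples that share their groups.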

How the data were processed

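Total RNA was extracted with Trizol and labelled as biotin cRNA by the Affymetrix procedure, per the labels' protocols. The deposited table holds log2 values of 1246 probe sets in 12 samples, made by the authors with RMA (background correction, normalization and summary of probes), per the submitters' processing notes. No array name, software version or filter is given in the sources used here. Probe sets were named through RefSeq accessions of GRCm38.p6; 963 matched 1 symbol and 283 are unnamed. RMA gives no detection call. Precision is limited by the number of arrays.

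The deposited log2 values were fitted with limma 3.58.1 (lmFit, eBayes; R 4.3.3) as 5 group means over all 12 samples, with Benjamini-Hochberg adjustment over 1246 probe sets, two-sided, at 0.05. Single samples were described where they lay outside the non-wounded range and 1 log2 unit or more from its mean. The members and gene lists were chosen with earlier results of these data known. Every member is named. For the wider list the plan was to name called genes or, per role, up to 2 with the smallest p. Not every role is given in this way, and genes named outside this plan were chosen after their values were seen. The numbers of the titles were treated as pairs. Same-numbered samples of the 2 h and non-wounded groups deviated from their group means with correlations of 0.796, 0.449, 0.651 and 0.297 for numbers 1 to 4. Without number 1 these were -0.150, 0.0727 and -0.319 for numbers 2 to 4, so among those numbers the values give no ground for pairing. Alternatives covered the replicate block (fixed and random), a term for number 1, scaling, centring, quantile normalization, filters, array weights and leaving out samples. The fit was tested on simulated data. Promoters were read from a RefSeq table and figures drawn with matplotlib 3.10.9 (Python 3.11.15).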

Additional observations from a re-analysis of the deposited data

Results flagged for a closer look

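In 20 groups of 4 samples (10 genes in the non-wounded and the 2 h samples), 3 had a sample far from the other 3 by Dixon's criterion at its 95% level, of which chance flags about 1 in 20. All 3 were non-wounded replicate 1. It read 5.98 for Notch2, where the other non-wounded samples read 8.60 to 9.06. It read 5.70 for Jag1 against 7.67 to 8.08, with the gap just at the limit. It read 8.89 for Jag2 against 8.12 to 8.24, so it was low for one Jagged ligand and high for the other. This sample was the reference of its number for the 0 h and 4 h samples.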

How the results depend on the processing

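With the replicate number as a block, fixed or random, the count of members called stayed at 0 in all 3 replicated comparisons, as did that of the wider list. Over all probe sets the calls at 2 h went from 3 (all higher) to 14 higher and 3 lower with the fixed block and 12 higher and 3 lower with the random block, which also called 1 between 30 min and 2 h. In the other alternatives of these 3 comparisons it was also 0, leaving out each replicate in turn included (0 to 0), except that array weights gave 1 at 2 h. That gene was Lfng, with a log2 difference of -0.53 (adjusted p = 0.0225 in limma; 0.0225 to 1 over its alternatives), in a fit that called 60 of the 1246 probe sets higher and 70 lower. The wider list gave 0 in the alternatives run. Over the 30 differences of members, 24 took the other sign under at least 1 alternative. Notch3 kept its sign in the 23 alternatives at 2 h and the 21 at 30 min. At 0 h the count of members, 1 in the report, was 0 against non-wounded replicate 1 (also after scaling, an alternative added after the data were seen), 2 after scaling or quantile normalization, and 3 at a difference of 0.5. Leaving out 1 non-wounded sample gave 1 to 3, with 3 without replicate 1. At 4 h the count, 3 in the report, was 2 after quantile normalization, 2 after scaling with replicate 1 as the reference, 4 after centring and 5 at a difference of 0.5, and leaving out 1 non-wounded sample gave 3 to 6, with 6 without replicate 1. Quantile normalization turned the 4 h split of all probe sets past the rule from 77 higher and 215 lower to 107 and 95. The median of all probe sets at 4 h moved from 0.14 to -0.01. Notch4 could not be tested without dim probe sets, among which it fell.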
